A study of Homo sapiens with 20 samples.

Results

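Broad RUNX1 peaks, here every region of 2000 bp or more in the deposited RUNX1 count table, numbered 1352 of 26642 peaks (5.07%) and covered 3.34 of 27.4 Mb (12.2%). They were chosen by width alone, with no use of counts or of the comparison, although the peaks themselves were called on these libraries. The libraries were made by chromatin immunoprecipitation and sequencing (ChIP-seq) in THP-1 cells, a widely used line derived from human acute monocytic leukemia. Control cells carried a scramble shRNA and knockdown cells an shRNA that targets PU.1, both in cassettes that were switched on by adding doxycycline to the medium. RUNX1 was precipitated in 6 control libraries (3 in batch 1, 3 in batch 2) and 6 knockdown libraries (2 in batch 1, 4 in batch 2), where a batch is an experimental round. The replicates came from 1 parental cell line, with an immunoprecipitation and library preparation of their own. The control and knockdown cells were separate derivatives of it, so the knockdown cannot be told apart from a difference between the derivatives. PU.1 levels cannot be read from RUNX1 ChIP-seq, and the depth of the knockdown was not checked here.

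RUNX1 is a DNA-binding factor of blood cell development that binds a short DNA word, and PU.1, an ETS family factor, is a partner that occupies many of the same regulatory regions in myeloid cells. A factor that reads a short word usually gives a narrow peak. Broad regions are typical of open chromatin at strongly used promoters and of clusters of regulatory elements, where neighbouring sites run together. The comparison addressed how RUNX1 occupancy of such wide regions differed when PU.1 was lowered, and whether it differed from narrower peaks that collected a similar number of reads.

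The sequences under the broad peaks are illustrated by 5 promoters, shown because their peaks were the 3 broadest (PHIP, BRD2 and MFSD2A), 1 of the 12 broadest that covers a pair of head-to-head genes (ZNF276), and the largest of the named losses over a listed promoter (IDH3B). Each runs from 250 bases before to 50 bases after a RefSeq gene start (GRCh38.p14), 5′ to 3′ on the gene's strand. Capitals mark a RUNX word (TGTGGT or TGCGGT) or an ETS word (GAGGAA or CAGGAA) on either strand.
PHIP promoter (chr6:79078205-79078504, minus strand): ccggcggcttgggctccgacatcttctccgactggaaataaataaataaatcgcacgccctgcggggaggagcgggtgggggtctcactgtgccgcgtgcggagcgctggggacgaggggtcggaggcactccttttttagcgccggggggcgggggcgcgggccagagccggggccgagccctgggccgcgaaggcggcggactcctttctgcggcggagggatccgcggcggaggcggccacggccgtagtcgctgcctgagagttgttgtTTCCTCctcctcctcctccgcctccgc
BRD2 promoter (chr6:32968344-32968643, plus strand): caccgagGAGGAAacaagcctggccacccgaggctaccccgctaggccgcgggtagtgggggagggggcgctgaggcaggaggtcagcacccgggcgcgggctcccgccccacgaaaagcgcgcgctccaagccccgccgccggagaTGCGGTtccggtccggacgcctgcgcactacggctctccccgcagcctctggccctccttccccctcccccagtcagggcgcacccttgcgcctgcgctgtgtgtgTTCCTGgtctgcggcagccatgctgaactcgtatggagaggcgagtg
MFSD2A promoter (chr1:39954895-39955194, plus strand): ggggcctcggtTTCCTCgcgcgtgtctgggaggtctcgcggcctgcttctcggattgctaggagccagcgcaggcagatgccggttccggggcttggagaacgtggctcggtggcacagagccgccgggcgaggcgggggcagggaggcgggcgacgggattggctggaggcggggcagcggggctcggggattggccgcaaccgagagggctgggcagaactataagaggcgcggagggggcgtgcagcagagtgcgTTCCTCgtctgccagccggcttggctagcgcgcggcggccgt
ZNF276 promoter (chr16:89720752-89721051, plus strand): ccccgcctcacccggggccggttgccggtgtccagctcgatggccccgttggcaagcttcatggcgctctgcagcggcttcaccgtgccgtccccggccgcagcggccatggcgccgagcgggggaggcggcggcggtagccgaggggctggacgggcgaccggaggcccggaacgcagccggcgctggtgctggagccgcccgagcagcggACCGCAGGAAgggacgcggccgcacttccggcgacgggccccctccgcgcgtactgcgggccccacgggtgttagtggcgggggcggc
IDH3B promoter (chr20:2664167-2664466, minus strand): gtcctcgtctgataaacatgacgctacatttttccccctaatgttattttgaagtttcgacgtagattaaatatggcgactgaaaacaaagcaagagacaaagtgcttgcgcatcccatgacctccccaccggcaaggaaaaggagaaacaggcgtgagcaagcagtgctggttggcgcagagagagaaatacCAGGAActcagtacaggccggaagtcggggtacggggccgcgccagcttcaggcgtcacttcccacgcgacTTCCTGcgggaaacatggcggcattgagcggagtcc
In the BRD2 promoter shown, 1 RUNX word and 2 ETS words were found. Other BRD2 promoters listed in the same peak held fewer words. In the ZNF276 promoter shown, the RUNX word on the minus strand overlapped an ETS word on the plus strand. Another ZNF276 promoter listed in that peak held no word of either kind. PHIP held 1 ETS word, and MFSD2A and IDH3B held 2 each, with neither RUNX word in those 3 windows. A RUNX word was found in 273 of 1208 listed promoters within broad peaks (22.6%), 26.4% of the 4949 within narrower peaks and 19.0% of all 22078. The ETS words were found in 46.9%, 46.0% and 46.8% of them. These shares are descriptions of letters in 300-base windows.

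Broad peaks had a median width of 2314.5 bp (2000 to 7850 bp). Of the 1352, 454 reached 2500 bp, 165 reached 3000 bp, 24 reached 4000 bp and 7 reached 5000 bp. Their width added reads more than it added density. The median normalised count, the count divided by the library's size factor, was 87.0 per broad peak (31.5 to 839.5) against 31.2 over all peaks, but per kb it was 35.8 against 33.1. Control libraries held 630247 to 1199004 reads in peaks, of which 81047 to 156183 fell in broad peaks. Knockdown libraries were deeper, with 938745 to 1719840 reads in peaks and 112274 to 208432 in broad peaks. The median broad peak thus received 51 to 97 reads per control library and 69 to 133 per knockdown library. Control replicate 1 stood apart with the largest share of its reads in broad peaks, and results that rest on it are also given without it.

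Most broad peaks lay at genes. An end of a protein-coding gene fell in or within 1 kb of 899 of them (66.5%), against 24.4% of all peaks. Another 269 (19.9%) lay inside a gene away from its ends, and 184 (13.6%) lay between genes. The gene table gives no strand, so a start and a stop are not told apart, but 726 of the 849 peaks at gene ends outside chromosome 8 (85.5%) were within 1 kb of a listed gene start. Gene ends were often shared: 193 broad peaks covered 2 ends and 19 covered 3 or more. The widest reach was over the replication-dependent histone genes H2BC21, H2AC20 and H2AC21 on chromosome 1, where 1 peak of 3904 bp held 5 ends. A wider region has more room to meet a gene end, and these shares are not corrected for width. Of the broad peaks, 297 were farther than 10 kb from any gene end, and 100 were farther than 50 kb.

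Broad peaks took a smaller share of the RUNX1 signal in the knockdown. In control libraries, 12.7%, 12.9% and 14.5% (lowest, median, highest) of in-peak reads fell in broad peaks, and in knockdown libraries 11.5%, 11.97% and 12.7%. The groups did not overlap, although the highest knockdown library and the lowest control library, from different batches, were close. The mean was 13.2% ± 0.65 (SD, n = 6) in the control and 12.05% ± 0.49 (SD, n = 6) in the knockdown. Within batch the share was 0.93 percentage points lower in batch 1 (−0.93) and 1.04 points lower in batch 2 (−1.04), a mean difference of −0.983 (two-sided exact permutation test within batch over 350 arrangements, p = 0.00286, the smallest these can give, and 0.00857 adjusted over 3 shares). Without control replicate 1 the difference was −0.754 (exact p = 0.00476). Without knockdown replicate 1 it was −0.953 and reached an exact p of 0.05.

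Nearly all of this difference in share lay at gene ends. There the share was 8.37% ± 0.63 (SD, n = 6) in the control and 7.34% ± 0.44 (SD, n = 6) in the knockdown, a within-batch difference of −0.915 (exact permutation test, p = 0.00857, adjusted 0.0129). Leaving out knockdown replicate 1 or 2 gave an exact p of 0.0571. Away from gene ends the share was 4.800% ± 0.048 (SD, n = 6) against 4.71% ± 0.087 (SD, n = 6), and the groups overlapped (4.73% to 4.85% against 4.61% to 4.84%). That difference of −0.068 (exact permutation test, p = 0.0486, adjusted 0.0486) missed the threshold when any of 10 of the 12 libraries was left out, all but knockdown replicates 1 and 6 (exact p = 0.0571 to 0.136). It was positive when the width limit was 1500 bp. A share is relative, so it falls when other peaks take more reads. All 6496 peaks at gene ends, of any width, had a median log2 fold change of −0.17. Broad peaks are compared below with narrower peaks of similar count in the same position. There the log2 difference per library was −0.10 at gene ends and −0.14 away from them.

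**Figure D1:**
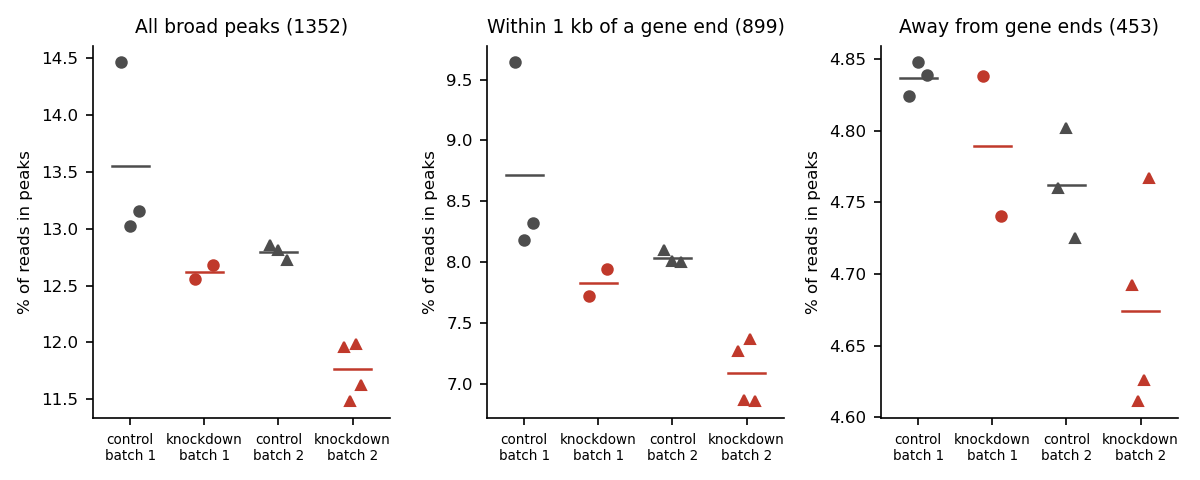
Percent of a library's in-peak reads that fell in broad peaks (y axes, not starting at 0 and scaled separately), for all 1352 broad peaks, the 899 within 1 kb of a gene end and the 453 away from gene ends. Each point is 1 library and each line the mean of a group in a batch. In the left panel every knockdown library lies under every control library of its batch, and control replicate 1 is the high point at 14.5%.

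Tested peak by peak, RUNX1 was lost from broad peaks more often than it was gained. At the call rule of the study's methods (DESeq2 adjusted p under 0.05 and a fold change over 1.1), 474 of 1352 were called (35.1%, against 42% of all peaks). Of these, 380 were lost (28.1%, against 20.7% of all peaks) and 94 gained (6.95%, against 21.3% of all peaks). In peaks of 1000 to under 2000 bp, 20.5% were lost and 14.9% gained, and under 1000 bp 20.2% were lost and 26.2% gained. Uncalled broad peaks leaned the same way, with 638 of 878 below 0. The median log2 fold change was −0.18 in broad peaks, −0.11 at 1000 to under 2000 bp, 0.09 under 1000 bp and −0.02 over all peaks. When only the 18255 peaks with at least 10 reads in every library were fitted, the split was 242 lost and 130 gained, and the fold changes moved up by a median of 0.07 on the log2 scale. With every library thinned to the smallest total, 228 were lost and 70 gained.

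Calls within a batch were fewer, and in batch 1 nearly even. In batch 1 alone 32 broad peaks were lost (2.37%, against 6.61% of all peaks) and 30 gained (2.22%, against 5.38%). In batch 2 alone, with more libraries, 202 were lost (14.9%, against 13.1%) and 61 gained (4.51%, against 12.8%). The 54 called in both batches all kept their direction (28 lost, 26 gained). Of the 474 calls, 472 had the same sign in each batch, which calling over both batches together made likely. The same counts over all peaks are not given here, so neither is a result about broad peaks. The median log2 fold change of broad peaks was −0.17 in batch 1 and −0.15 in batch 2. In DESeq2's test of the difference between batches no broad peak passed at an adjusted p under 0.05, and 30 had an unadjusted p under 0.05. In 194 broad peaks every knockdown library was below every control library of its batch (14.3%, against 13.9% of all peaks), and in 72 every one was above (5.33%, against 14.4%). Changes were modest in size: 13 broad peaks changed over 2-fold (0.962%, against 17.1% of all peaks), 6 gained and 7 lost. Of peaks under 1000 bp 24.3% did. These shares are not at like count. The median standard error of the log2 fold change was 0.13 in broad peaks and 0.21 over all peaks. Peaks of similar count are compared below.

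Losses and gains were then counted by position. Of the 899 broad peaks at gene ends, 272 were lost (30.3%) and 24 gained (2.67%), where all 6496 peaks at gene ends gave 19.0% and 6.19%. Of the 453 away from gene ends, 108 were lost (23.8%) and 70 gained (15.5%), where all 20146 such peaks gave 21.3% and 26.1%. The median log2 fold change was −0.20 at gene ends and −0.09 away from them. Peaks of 1000 to under 2000 bp gave −0.18 and −0.01, and all peaks −0.17 and 0.07. A fall at gene ends was thus not particular to broad peaks. Peaks over 1 gene end had a median of −0.20, those over 2 ends −0.23, and of the 19 over 3 or more 11 were lost and none gained. Within the class, 136 of the 561 narrowest were lost and 42 gained, from 3000 to under 4000 bp 46 of 141 and 9, and at 4000 bp or more 13 of 24 were lost and 0 gained. Their median normalised counts rose in the same order (73.8, 120 and 175), so smaller changes could be called in wider peaks. Their median log2 fold changes were −0.17, −0.19 and −0.27, but the median did not fall at every step of width. With 6.95% of all broad peaks and 2.67% of those at gene ends gained, no gain among 24 or 19 is not a result about them.

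**Figure D2:**
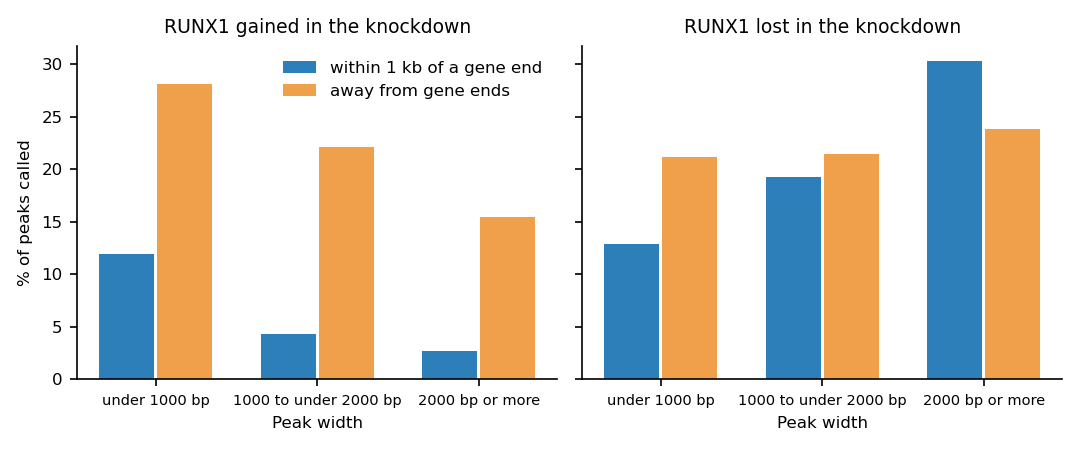
Percent of peaks called gained (left) or lost (right) in the knockdown by DESeq2, by peak width (x axis), within 1 kb of a gene end (blue) and away from gene ends (orange). Gains shrink with width in both positions, down to 2.67% of broad peaks at gene ends, and losses at gene ends rise with width from 12.9% to 30.3%.

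To compare broad peaks with narrower ones that collected as many reads, all peaks were placed in 5 bands of mean normalised count that each held an equal number of broad peaks. This holds the counting error about equal. In the lowest band (31.5 to 61.5) the median standard error of the log2 fold change was 0.17 in broad peaks and 0.18 in narrower ones. In the highest it was 0.10 in both. The counts themselves were less alike in the lowest band, with a median of 52.6 in broad peaks and 42.3 in narrower ones. The unsigned size of change was similar. Its median, averaged over the bands, was 0.23 in broad and 0.24 in narrower peaks, and was smaller in broad peaks in 4 of 5 bands (difference −0.011). This small difference changed sign at gene ends, where broad peaks changed more in all 5 bands (difference 0.058), and was −0.048 away from them.

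The direction of change set them apart. The median signed log2 fold change was lower in broad than in narrower peaks in each of the 5 bands, by 0.17 on average (−0.17). In the lowest band it was −0.28 against −0.09, and in the highest, −0.12 against 0.05. At gene ends the mean difference was −0.10, and away from them −0.15. Read out per library, as the log2 ratio of summed normalised counts in broad over narrower peaks of the same bands relative to the control mean, the knockdown libraries lay at −0.28, −0.23 and −0.07 (lowest, median, highest) and the control libraries at −0.06, −0.04 and 0.19. The within-batch difference was −0.18 (−0.14 in batch 1, −0.22 in batch 2, exact permutation test, p = 0.00571). It was −0.14 without control replicate 1 (exact p = 0.00476). At gene ends it was −0.10 (exact p = 0.00571) and away from them −0.14 (exact p = 0.00286), each 0.00571 after adjustment over the 3 ratios. Among peaks of equal count per kb, which differ in reads per peak, broad peaks changed less, with a difference of −0.16 in unsigned log2 size.

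**Figure D3:**
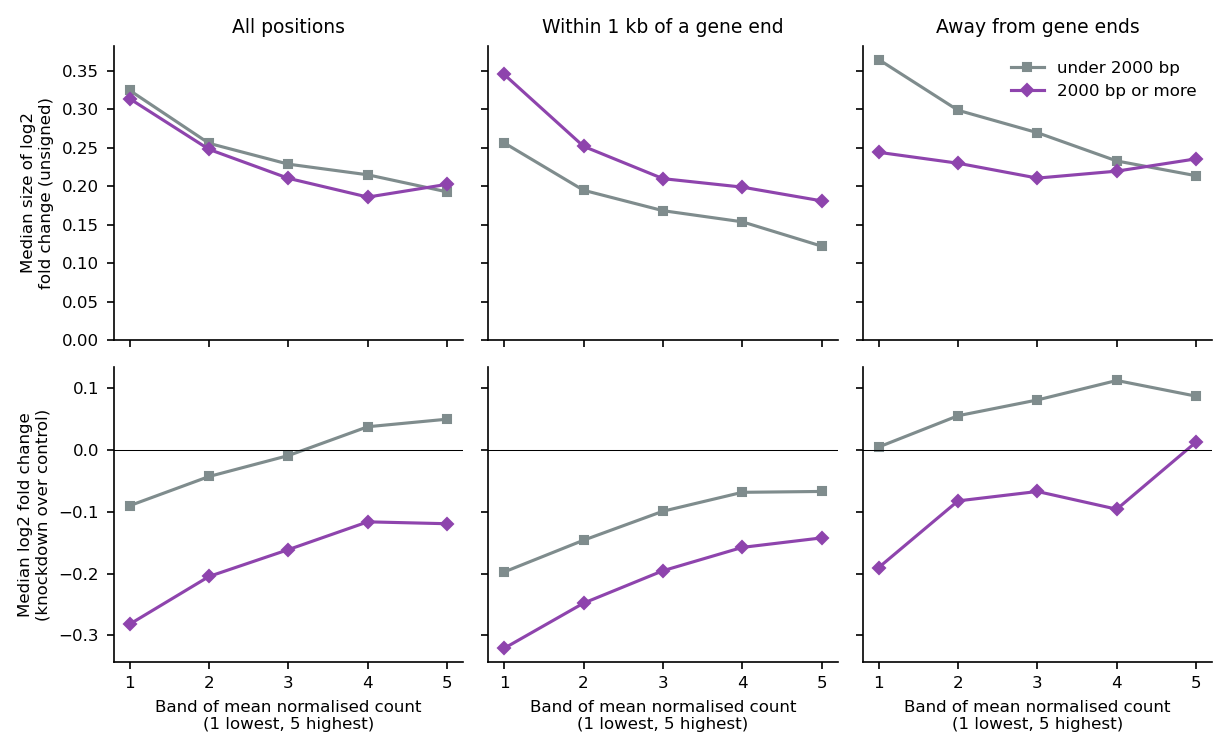
Median unsigned (top) and signed (bottom) log2 fold change, knockdown over control, in 5 bands of mean normalised count, for broad peaks (purple) and narrower peaks (grey). The bands hold equal numbers of the broad peaks of each panel, over all positions, within 1 kb of a gene end and away from gene ends. The purple line lies under the grey one in every lower panel, and in the upper row above it only at gene ends throughout.

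Of the 12 broadest loci, 8 were lost, 4 were not called and none was gained. Of all broad peaks 28.1% were lost and 6.95% gained, and of all peaks 20.7% and 21.3%. Each of the 12 had a mean count above the median broad peak (87.0), so smaller changes could be called. At 6.95%, no gain among 12 is not a result about them. The broadest, at 7850 bp (chr6:79077788-79085637), covered an end of PHIP, a bromodomain protein linked to a ubiquitin ligase. It held 375, 418 and 578 normalised counts (lowest, median, highest) in the control and 241, 315 and 356 in the knockdown, so the groups did not overlap. The log2 fold change was −0.55 (SE 0.10, DESeq2 adjusted p = 1.2e-06), being −0.34 in batch 1 and −0.69 in batch 2. The second, at 6864 bp (chr6:32966549-32973412), covered an end of BRD2, a reader of acetylated histones. Its counts of 369, 395 and 511 in the control and 345, 380 and 397 in the knockdown overlapped. The log2 fold change of −0.11 (SE 0.08) was not called (DESeq2 adjusted p = 0.24).

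The third broadest peak was also the strongest of all. It spanned 6598 bp (chr1:39950030-39956627) at MFSD2A, a lysophospholipid transporter, and held 812, 878 and 1068 normalised counts in the control and 717, 749 and 814 in the knockdown. The groups overlapped slightly across batches but not within them, and the log2 fold change was −0.28 (SE 0.07, DESeq2 adjusted p = 0.00047). The region around it was rich in broad peaks, with 8 between 39 and 40 Mb of chromosome 1 and 12 between 40 and 41 Mb. Narrower peaks from 40 to 41 Mb also had a high median of 105.9 normalised counts per kb against 33.1 over all peaks, and the part of this regional level in the peaks' counts was not tested. A second peak near MFSD2A, 2252 bp wide and 19549 bp from its nearest gene end, was the second strongest (750 to 867 in the control, 712 to 987 in the knockdown) and was not called (log2 fold change 0.01). Others of the 6 strongest lay in CAP1, an actin regulator (−0.26, lost), at RIMS3 and NFYC, the latter a subunit of the CCAAT-binding factor NF-Y (−0.40, lost), in ARHGAP39, a GTPase-activating protein (−0.25, lost), and between genes near the start of chromosome 7 (0.16, not called). After centring on the surrounding 10 Mb the CAP1 and ARHGAP39 log2 fold changes were −0.12 and −0.06 and no longer called, and that of RIMS3 was −0.26 and still called. ARHGAP39 was also not called without control replicate 1 or 4 or knockdown replicate 2, 4 or 5, and the chromosome 7 peak was called (0.25) without knockdown replicate 2.

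Among the other broadest loci, the peak over MYC, the proto-oncogene that drives cell growth, spanned 5846 bp (chr8:127733430-127739275). Its control libraries held 238 to 274 normalised counts and its knockdown libraries 190 to 230, without overlap. The loss was small (log2 fold change −0.23, SE 0.08, DESeq2 adjusted p = 0.0169). It missed the threshold without knockdown replicate 2 or 5 or control replicate 4 (adjusted p = 0.0527 to 0.0655), after centring on the surrounding 10 Mb (−0.16, adjusted p = 0.11), and when only peaks with at least 10 reads in every library were fitted (−0.16, adjusted p = 0.126). PTGER4, the prostaglandin E2 receptor EP4, had a peak of 5463 bp (chr5:40678654-40684116) with 161, 195 and 212 counts in the control and 106, 128 and 136 in the knockdown. All control libraries were above all knockdown libraries, and the log2 fold change was −0.57 (SE 0.10, DESeq2 adjusted p = 2.4e-07). After centring it was −0.28 and still called (adjusted p = 0.0185).

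A region of 4963 bp on chromosome 13 (chr13:91341394-91346356) lay 1331 bp from MIR17HG, the host transcript of the miR-17-92 microRNA cluster, and 52265 bp from the nearest protein-coding gene, GPC5. It held 170, 229 and 345 counts in the control and 122, 147 and 205 in the knockdown. Its log2 fold change of −0.73 (SE 0.11, DESeq2 adjusted p = 1.0e-09) was the largest of the 12. The groups overlapped across batches but not within either. Inside AHRR, which encodes the repressor of the aryl hydrocarbon receptor, a peak of 5276 bp was lost (−0.32, or −0.50 after centring on the surrounding 10 Mb), and so were those in GSE1 (4652 bp, −0.32) and at VPS9D1 and ZNF276 (4465 bp, −0.56). The 2 nutrient transporter loci were not called: SLC1A5, the glutamine carrier, had a log2 fold change of −0.07 over 5823 bp, and SLC2A1, the glucose carrier GLUT1, 0.08 over 4724 bp. After centring, SLC1A5 was at −0.17 and SLC2A1 at 0.22, the latter then called (adjusted p = 0.023). SOX12 (4587 bp, −0.25) was not called either, except without control replicate 2 (−0.34). Its counts were 125 to 152 in 5 control libraries and 312 in control replicate 1, without which the log2 fold change was −0.04.

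**Figure D4:**
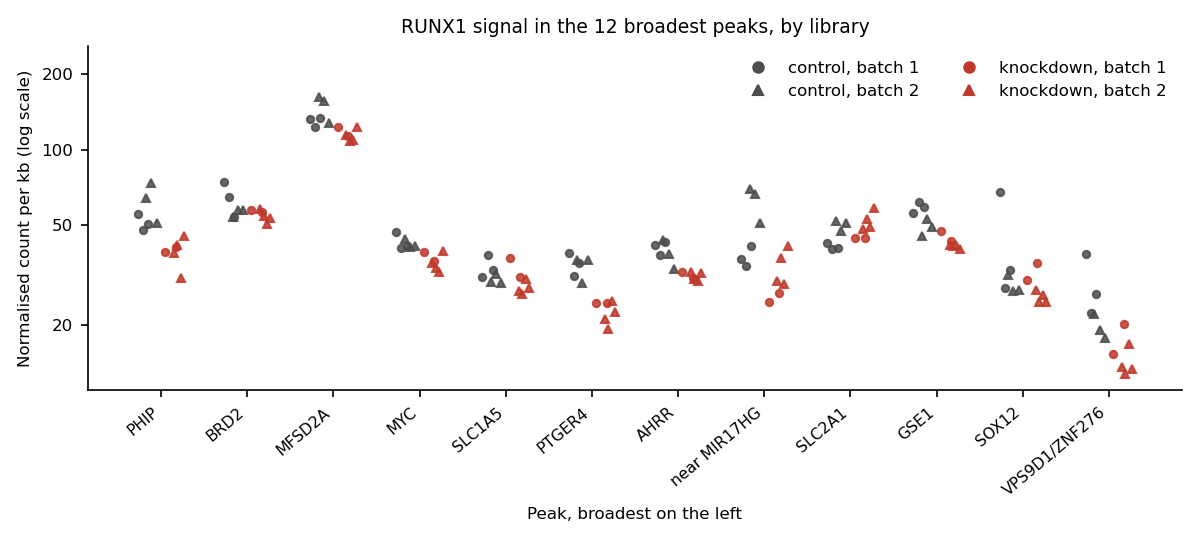
Normalised count per kb (y axis, log scale) of the 12 broadest peaks, broadest on the left, with 1 point per library. Circles are batch 1, triangles batch 2, grey control and red knockdown. MFSD2A stands highest, PHIP, PTGER4, MYC and AHRR show no overlap of the groups, and SOX12 has 1 high control library.

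The 8 largest gains were 2087 to 2386 bp wide, and 6 of them lay inside a gene. They were chosen among the 67 gained peaks whose knockdown libraries were all above the control libraries of their batch. CXXC5, a zinc finger regulator of Wnt and receptor signalling, had a peak 11992 bp inside the gene (chr5:139669797-139671890) with 35.1, 48.7 and 67.6 normalised counts in the control and 95.1, 123 and 131 in the knockdown. The groups were well apart, and the log2 fold change was 1.28 (SE 0.15, DESeq2 adjusted p = 1.2e-15), being 1.71 in batch 1 and 0.97 in batch 2. The gain with the smallest adjusted p lay inside GRAP2, an adaptor of T cell receptor signalling, and 349 bp inside an end of TMA7B (chr22:39960746-39962985). Its counts rose from 59.0, 72.6 and 89.1 to 154, 166 and 201 (log2 fold change 1.197, SE 0.12, DESeq2 adjusted p = 9e-22).

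The other gains of the 8 were at SNCB, which encodes beta-synuclein (1.24), inside CDCP1, a transmembrane signalling protein (1.16), 11543 bp from TMEM209 (1.16), 28465 bp from CELF2, an RNA-binding splicing factor (1.098), inside TBC1D14, a regulator of autophagosome formation (0.996), and inside CYTH4, an ARF exchange factor of blood cells (0.99). In each, all 6 knockdown libraries were above all 6 control libraries, which the choice by separation within batch made likely. At TBC1D14 the counts were 68.9, 84.3 and 96.1 in the control and 148, 162 and 195 in the knockdown. After centring on the surrounding 10 Mb all 8 gains were still called. The log2 fold changes were then 0.999 at GRAP2 and TMA7B, 0.93 near CELF2 and 0.80 in CYTH4.

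The 8 largest losses, chosen by the same rule among 189 peaks, were 2007 to 3841 bp wide. An end of a gene lay within 1 kb of 4 of them, and of 2 of the 8 gains. PPP1R9B, which encodes the actin-binding scaffold spinophilin, had the largest change of any broad peak. Its peak of 3041 bp lay inside the gene, 399 bp from an end (chr17:50147238-50150278). It held 69.2, 92.0 and 113 normalised counts in the control and 21.4, 27.6 and 41.1 in the knockdown, without overlap, for a log2 fold change of −1.62 (SE 0.16, DESeq2 adjusted p = 9.9e-22). The second lay 532435 bp from any protein-coding gene on chromosome 6 (chr6:92109355-92111823), with 69.1, 74.4 and 97.1 counts in the control and 24.2, 30.2 and 34.2 in the knockdown (−1.35). The third was 5258 bp from DCANP1 (−1.26).

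EIF4EBP1, a repressor of cap-dependent translation, had a peak of 3841 bp over a gene end (chr8:38029227-38033067). Its counts fell from 102, 127 and 137 to 40.3, 51.5 and 70.8 (log2 fold change −1.23, SE 0.14, DESeq2 adjusted p = 1.0e-16). CTSB, the lysosomal protease cathepsin B, had a peak inside the gene, 7607 bp from an end, that fell from 53.0, 57.3 and 65.9 to 19.1, 26.9 and 39.1 (−1.10). The remaining losses were at IDH3B, a subunit of the mitochondrial isocitrate dehydrogenase (−1.06), over CCDC26, a noncoding transcript whose nearest protein-coding gene is GSDMC (−1.001), and at TFAP4, a helix-loop-helix transcription factor (−0.98). All 6 knockdown libraries were below all 6 control libraries in each of the 8, which the choice by separation within batch made likely.

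**Figure D5:**
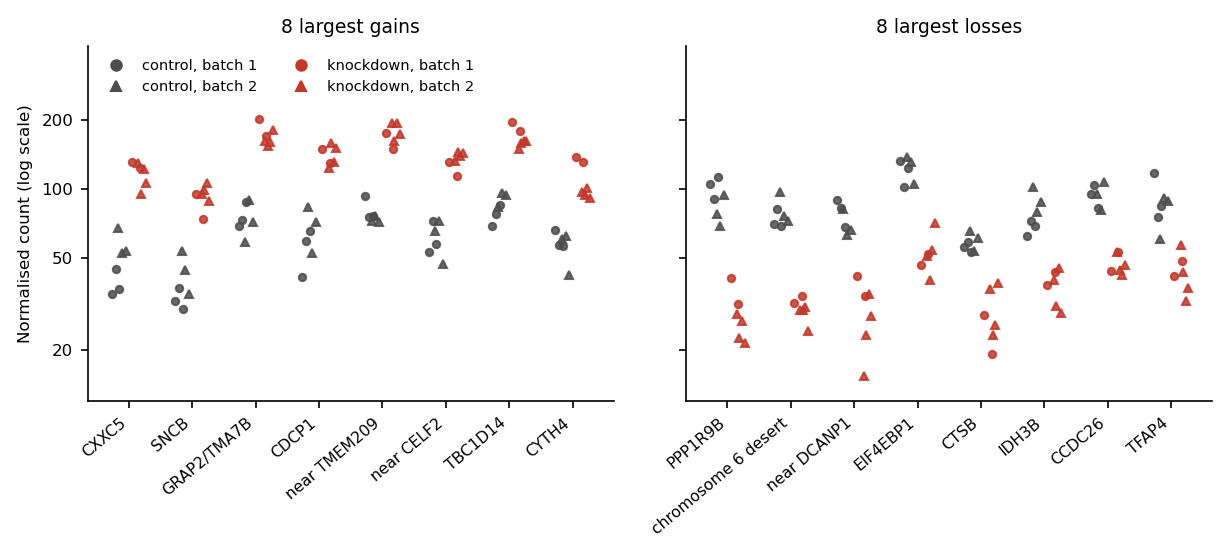
Normalised count (y axis, log scale) per library of the 8 broad peaks with the largest gains (left) and the 8 with the largest losses (right), largest on the left of each panel. Symbols are as for the broadest peaks. The groups of 6 libraries are separate in all 16 peaks, which were chosen for separation within batch and for large change.

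By role, broad peaks within 10 kb of an end of, or inside, genes of 9 lists were counted. These counts read against 28.1% lost and 6.95% gained of all broad peaks, and a peak near genes of 2 lists counts in both. The median log2 fold change was −0.26 at blood transcription factors, 0.0011 at AP-1 and immediate early genes, −0.07 at myeloid receptors, −0.13 at granule and at apoptosis genes, 0.21 at NF-kappaB genes, −0.24 at chromatin and RNA genes, −0.22 at ribosomal protein genes and −0.31 at histone genes, beside −0.18 over all broad peaks and −0.02 over all peaks. Of 10 at blood transcription factors, 4 were lost (ELF1 −0.31, MEF2D −0.46, IRF1 −0.38 and IRF2 −0.43) and 1 gained, in RUNX1 itself. That RUNX1 peak lay 1919 bp inside an end of the gene (chr21:35045363-35047383) and held 53.0, 58.5 and 71.1 counts in the control and 87.9, 105 and 110 in the knockdown, apart in every library. Its log2 fold change was 0.78 (SE 0.13, DESeq2 adjusted p = 8.5e-08). The other broad RUNX1 peak was not called (−0.19), nor were those of GATA2 (−0.12), BCL6 (−0.27), BCOR (−0.26) and HOXA10.

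Of 8 at AP-1 and immediate early genes, 1 was lost (JUND, −0.91, SE 0.32) and 1 gained, 69 bp from BATF3, a factor of dendritic cell development (0.54). FOS, JUNB, ATF3, EGR1, EGR3 and ZFP36 were not called. Of 8 at myeloid surface and cytokine receptors, 2 were lost, at IL6R (−0.38) and over FCGR1A (−0.32), and 1 gained, at TNFRSF1A, the TNF receptor (0.59). At IL6R the peak of 3421 bp held 213, 237 and 271 counts in the control and 157, 178 and 209 in the knockdown, without overlap. After centring on the surrounding 10 Mb its log2 fold change was −0.19 and no longer called (DESeq2 adjusted p = 0.067). Of 7 at NF-kappaB and cytokine signalling genes, 2 were gained, TNFAIP8 (0.27) and the peak over the NEMP1 and NAB2 ends near STAT6 (0.37), and none was lost. The NEMP1 call was marginal (DESeq2 adjusted p = 0.0292) and missed the threshold without control replicate 2, 4 or 6 or knockdown replicate 1, 3 or 6.

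Of 6 at granule and lysosome genes only CTSB was called, and the peak over PRTN3 and ELANE, which encode neutrophil granule proteases (0.14), and another at ELANE (0.01) were not. Of 6 at apoptosis and autophagy genes 1 was lost, inside TFEB, the regulator of lysosomal genes (−0.63). Its counts were 90.2, 100 and 112 in the control and 52.8, 65.7 and 90.3 in the knockdown, and the groups met at their edges.

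Each of the 3 housekeeping lists held lost peaks. Of 17 at chromatin and RNA genes 7 were lost, among them NCOR1, a nuclear corepressor (−0.42), EZH2, the H3K27 methyltransferase (−0.89), the helicase DDX5 (−0.37), GAPDH (−0.31) and both SRSF2 peaks (−0.24 and −0.34). Of 16 at cytosolic ribosomal protein genes 7 were lost, led by RPL7 (−0.58, or −0.37 after centring), RPL3L and RPS2 (−0.50), RPL37 (−0.48) and RPS28 (−0.47). The name pattern for this list also caught RPL3L, RPL26L1, RPL7L1 and RPS19BP1. Of 4 at histone genes 2 were lost, over H2BC21 (−0.33) and H2BC18 (−0.32), the latter being the peak over FCGR1A. None of the broad peaks on these 3 lists was gained, where 2.67% of broad peaks at gene ends were, a share at which 0 in lists this small is not a result about them. Their shares of lost peaks were not tested.

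Some broad peaks lay close to another. Of the 1352, 246 (18.2%) had another within 50 kb, in 108 groups, 8 of which held 4 or more. The same share was not measured for narrower peaks, so whether broad peaks cluster more than others was not tested. The largest, of 5 peaks, ran over C20orf96, SOX12, NRSN2 and TRIB3 (chr20:288852-383239), with 2 lost and none gained. All 4 at SMAP2 on chromosome 1 were lost (median log2 fold change −0.43). None of the 8 large groups held a gained peak, and with 6.95% of all broad peaks and 2.67% of those at gene ends gained, 0 in so few peaks is not a result about the groups. By chromosome, loss exceeded gain in the broad peaks of all but chromosome 22, which had 7 gained and 3 lost of 36. Chromosome 8 had 47 lost and 2 gained of 89, with a median log2 fold change of −0.29 where all its peaks had −0.15. Medians over all peaks were lowest on chromosome 11 (−0.28) and, chromosome Y aside, highest on chromosome 10 (0.14). For such shifts, the knockdown and a difference between the derivatives cannot be told apart.

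The limit of 2000 bp falls in a continuous range of widths. Just inside it were the peaks at ZNF335 (2000 bp, log2 fold change −0.26), PIDD1 and RPLP2 (2001 bp, −0.36) and GLUD1 and SHLD2 (2001 bp, −0.23). Just outside, 1 bp short of the limit, were those nearest PPIAL4G (−0.16), at CDC25C and FAM53C (−0.08) and at PDE8A (−0.22). The widths were set on the merged peaks of both conditions, called on the libraries that are compared, and each peak gives 1 sum, so a change in shape within it is not seen.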

How the data were processed

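RUNX1 ChIP-seq was made in 12 THP-1 libraries. The 8 IgG libraries are not in the count table and were not analysed here. Per the study's methods and the labels, the authors mapped reads with Bowtie2, discarded duplicates, ran MACS2 separately for each condition and batch, retained peaks found in both batches, joined those of both conditions and tallied reads with featureCounts (versions not given in the sources used here). The deposited values are raw counts per peak and library, and the deposited peak width in bp, another kind of value, chose the peaks. The methods name a mouse build and the labels GRCm38 and GRCh38. Coordinates were read as GRCh38 and set against RefSeq GRCh38.p14.

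DESeq2 1.42.0 (R 4.3.3) was fitted with batch and group to all 26642 peaks, with Benjamini-Hochberg adjustment over all of them. Gained or lost means an adjusted p under 0.05 and a fold change over 1.1. For a value per library, the two-sided exact test permuted libraries within batch. Counts of reads carry counting error, and p-values cover the spread between libraries, not between independent derivatives of the line. Libraries of a group differed by more than sampling noise (chi-square per degree of freedom 1.33 to 3.83 over 30 pairs), so none was counted as a duplicate. Alternatives included edgeR 4.0.16. The test was tried on simulated data.

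Position was measured from either end of a protein-coding gene. Start sites had been planned, but the promoter table lists a start for 15843 of 20056 genes (79.0%) and none on chromosome 8, so they serve as an alternative. Promoter words were searched on both strands.

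Named peaks were the 12 broadest, the 6 with the highest mean count, the 8 largest gains and 8 largest losses among calls with no overlap of groups within batch, the 3 on each side of the width limit, and per gene list the call with the smallest adjusted p. Other members of a list were named after their values were seen. The broad peaks, the lists and the rules were chosen with earlier results of these data known.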

Additional observations from a re-analysis of the deposited data

Results flagged for a closer look

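The highest or lowest library was set against the others in each group of 6 for the shares, the ratios and the named peaks (106 groups). A gap as wide as those below, relative to the group's range (Dixon's test), arises by chance in about 1 in 20 groups (5.3 of 106), and 7 were found, 6 of them in control replicate 1. Its share of reads in broad peaks was 14.5% (12.7% to 13.2% in the other control libraries), and at gene ends 9.64% (8.002% to 8.32%). Its log2 ratio of broad to narrower peaks was 0.19 (−0.06 to 0.004). It was also high at the peaks of SOX12 (312 normalised counts against 125 to 152), near TMEM209 (93.6 against 71.6 to 76.2) and at GLUD1 and SHLD2 (103 against 26.0 to 44.2). Knockdown replicate 6 was low at the H2BC21 peak (133 against 155 to 168).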

How the results depend on the processing

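Of the 474 calls in broad peaks, 474 were shared with edgeR (which made 563), 455 with TMM size factors and 236 with the replicate block. The calls numbered 239 with the replicate block (53 gained, 186 lost), 298 with every library thinned to the smallest total, 301 at an adjusted p under 0.01, 13 at a fold change over 2, 1285 at 1500 bp or more and 68 at 3000 bp or more. Same-numbered libraries did not deviate together (correlations of −0.23 to −0.01), so the numbers do not pair them. Leaving out 1 library gave 365 to 475 calls over both batches, 3 to 52 in batch 1 (62 with all) and 147 to 237 in batch 2 (263 with all). In batch 1, leaving out either knockdown library leaves 1 that is assumed to vary like the controls, and the count was 3 without replicate 1, 4 without replicate 2, 19 without control replicate 2 and 15 without control replicate 3. In batch 2 it was 175, 147 and 156 without control replicates 4, 5 and 6 and 172 without knockdown replicate 4.

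Leaving out 1 library, the difference in the share of reads ranged from −1.11 to −0.754 percentage points, at gene ends from −1.05 to −0.683, and away from gene ends from −0.092 to −0.044. Away from gene ends it was 0.231 at 1500 bp or more (exact permutation p = 0.0114), −0.087 with libraries exchanged over both batches (exact p = 0.0649) and −0.062 on autosomes (exact p = 0.0771).

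The difference in unsigned size of change between broad and narrower peaks of like count (−0.011) was −0.0016 in 10 bands of count instead of 5, −0.159 in bands of count per kb, −0.022 in batch 1, −0.033 in batch 2 and 0.043 at 3000 bp or more. At gene ends it was 0.058 (0.032 and 0.041 in batches 1 and 2, 0.057 by start sites) and away from them −0.048 (−0.034, −0.058 and −0.029). It ranged from −0.032 to 0.00059 without 1 library. The signed difference (−0.166) was negative in each of these settings. It was −0.097 at gene ends (−0.074 and −0.115 in batches 1 and 2, −0.084 by start sites), −0.10 away from them in batch 1 and −0.215 at 3000 bp or more. Start sites, batches by position and the signed difference were added after the data were seen. The causes were not tested.

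Leaving aside the 6 peaks beside the width limit, whose calls are not reported, of 35 named calls 25 passed in every alternative and 10 missed the threshold in at least 1, and none changed sign. Of the other 6 named peaks, which were not called, 3 were called in at least 1. With 51 to 133 reads in the median broad peak, small changes could not be told from the spread between libraries.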
